A study of Homo sapiens with 9 samples.

Results

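The RNA counts of 265 genes in 2 chromosome blocks, the far end of the long arm of chromosome 5 and a stretch of chromosome 20 that covers most of its short arm, were described in H295R cells, a human steroid-producing line from an adrenocortical carcinoma. The genes were taken by position on GRCh38 from the 14319 genes with 10 or more counts in 3 or more of the 9 libraries. A total of 143 started on chromosome 5 between 149494314 and 181272307, and 122 started on chromosome 20 between 270863 and 31801805. Of the 610 and 596 genes annotated in these stretches, 454 and 463 did not reach that count, and 13 and 11 were skipped by symbol (ribosomal protein, proteasome and potassium channel genes among them). The limits of both blocks had been set from the contrast of KO with WT in these same libraries, so every KO value of a member below is a description without a test. Of the 265 members, 237 are protein coding.

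The libraries fall into 3 groups of 3: cells labelled as SGPL1 knockout (KO), cells labelled as SGPL1 overexpression (labelled OE) and H295R cells with no stated change (WT). All were untreated, and the RNA was poly-A selected. The sources used here do not give the kind of edit, the overexpression construct or whether a group is 1 clone. By the design text the replicates are biological, with no word on whether they came from separate cultures, so p-values reflect only how far these libraries differ, part of which may be technical. SGPL1 encodes the lyase that degrades sphingosine-1-phosphate. It lies on chromosome 10, outside both blocks. Its level was 48.3 ± 5.1 CPM (counts per 1000000 of the scaled library total) in KO, 93.5 ± 10.7 CPM in the libraries labelled OE and 94.3 ± 9.6 CPM in WT (SD, n = 3 each), so the label OE was not matched by a higher count. The counts cover the whole gene and do not show whether a transcript is intact. All 8 adrenocortical markers (such as NR5A1, STAR and CYP11A1) were detected, with summed levels of 2302 to 2697 CPM in KO, 2244 to 2587 CPM in the libraries labelled OE and 1797 to 1968 CPM in WT. Summed fibroblast markers reached 14.7 to 17.1 CPM in KO, 11.9 to 16.8 CPM in the libraries labelled OE and 17.2 to 27.5 CPM in WT. Summed epithelial markers, nearly all of it EPCAM, reached 10.5 to 13.6 CPM in KO, 27.8 to 32.6 CPM in the libraries labelled OE and 24.2 to 28.7 CPM in WT. LUM, KRT5, KRT14, PTPRC and CD3E were at 0 in every library. Library totals ran from 8006873 to 10895080 counts.

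Neighbouring genes of a chromosome seldom share a function, but they share position. They lie in common chromatin domains, replicate together and, in tumour lines with rearranged karyotypes, are gained or lost together with the DNA that carries them. The end of chromosome 5q holds genes for ribosome and messenger RNA factors (NPM1, RACK1, LARP1), early secretory pathway receptors (TMED9, LMAN2, ERGIC1) and the growth factor receptor FGFR4. The chromosome 20 stretch holds splicing factors (SNRPB, SNRPB2), the prion protein gene PRNP and developmental transcription factors such as FOXA2 and INSM1. DNA was not measured in this series.

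Most members were lower in KO cells than in WT cells. On chromosome 5, 119 of the 140 members that passed the filter of the test were lower in KO, with a median log2 fold change of -0.87 (quartiles -1.23 and -0.49), or 54.6% of the WT level. On chromosome 20, 104 of 119 were lower, with a median of -0.67 (quartiles -0.98 and -0.27), or 62.8% of WT. Over all 14150 genes tested, 50.8% were lower in KO and the median was -0.01. All 3 KO libraries lay below all 3 WT libraries for 102 members on chromosome 5 (72.9%) and 76 on chromosome 20 (63.9%), beside 17.6% of all genes tested. Because KO against WT set the limits, these shares only describe what the choice of region brought in. In bulk RNA, fewer cells of a type and less RNA per cell cannot be told apart.

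The libraries of each group behaved alike. Relative to the WT mean of each gene, the median chromosome 5 member stood at -0.83, -0.88 and -0.83 (log2 CPM) in the 3 KO libraries, at 0.008, -0.003 and 0.003 in the libraries labelled OE and at 0.035, -0.013 and 0.002 in WT. The median chromosome 20 member stood at -0.59, -0.66 and -0.63 in KO, at -0.12, 0.04 and -0.07 in the libraries labelled OE and at 0.02, 0.02 and -0.04 in WT. Each KO library thus carried the shift to about the same depth, and no library of the other groups did. Set against the libraries labelled OE, which the choice of region did not use, the KO medians were -0.76 on chromosome 5 and -0.52 on chromosome 20. All 3 KO libraries lay below all 3 libraries labelled OE for 159 of the 259 members, beside 25.3% of all genes tested. This contrast shares the KO libraries with the one that set the limits and was not tested over the members.

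The same shift was seen in the pooled reads. Members on chromosome 5 took 0.595% ± 0.004 of all counts in KO, 0.998% ± 0.003 in the libraries labelled OE and 0.975% ± 0.005 in WT (SD, n = 3 each). Members on chromosome 20 took 0.523% ± 0.011 in KO, 0.663% ± 0.003 in the libraries labelled OE and 0.715% ± 0.010 in WT. The groups did not overlap on either chromosome, and the libraries labelled OE lay above WT on chromosome 5 and between KO and WT on chromosome 20. A pooled share is weighted to the members with the most counts. NPM1 on chromosome 5, for example, had 1291 ± 163 CPM in the libraries labelled OE and 953 ± 82.3 CPM in WT. The median log2 fold change of the chromosome 5 members between these 2 groups was -0.014, so the higher share does not describe the typical member.

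**Figure D1:**
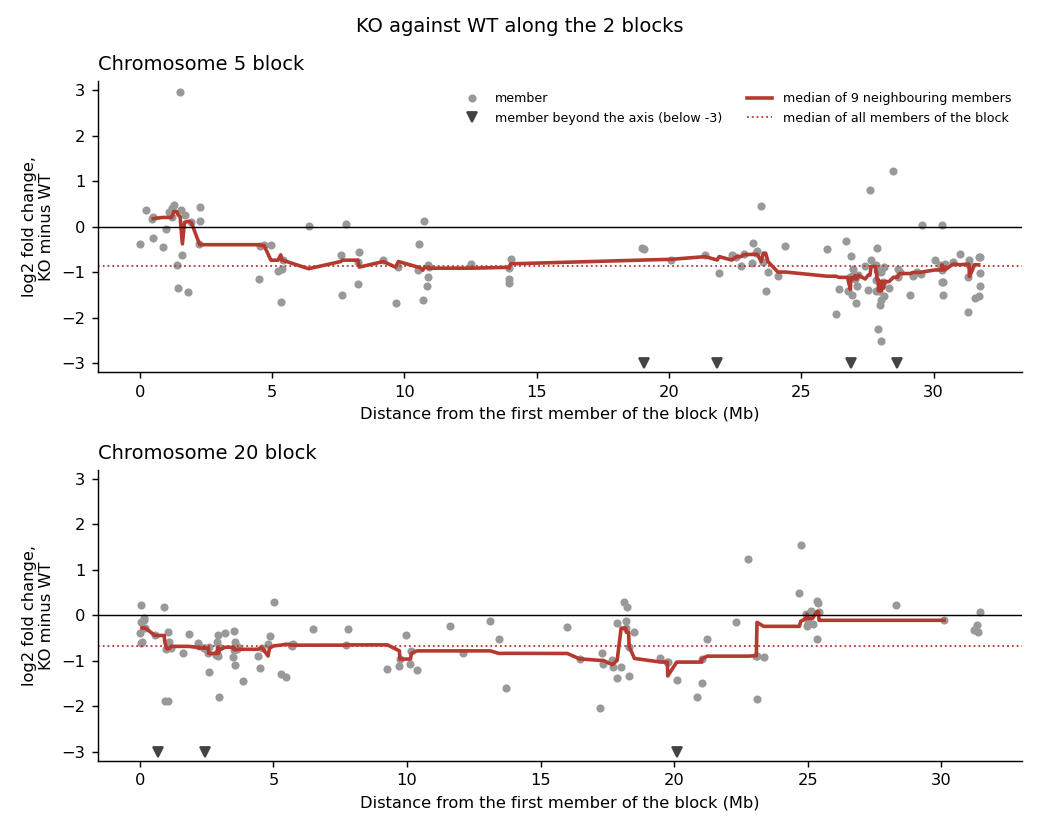
Log2 fold change of KO against WT (vertical axis) for each member by its distance in megabases from the first member of its block (horizontal axis), with the chromosome 5 block above and the chromosome 20 block below. The running median of 9 neighbouring members (line) lies near 0 at the start of the chromosome 5 block and at the end of the chromosome 20 block and stays below 0 over the stretches between, where the runs of 20 described next had medians of -0.51 to -1.12.

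The shift did not fill the stretches up to their limits. Members were ordered by start and taken in runs of 20. The first run on chromosome 5, from 149494314 to ATOX1 at 151742316, had a median of 0.13, with 9 of 20 members lower in KO, and the 20 tested genes just before the block had a median of 0.21. The next 6 runs had medians of -0.74, -0.91, -0.72, -1.12, -1.06 and -0.90, with 16 to 19 of 20 members lower in each. No gene that starts after the block passed the filter, and only 10 annotated genes start there, so the shift ran to the last tested gene of chromosome 5. On chromosome 20 the order was the reverse. The first 5 runs, from 270863 to NAPB at 23374519, had medians of -0.51, -0.74, -0.70, -0.90 and -0.92, with 18 to 20 of 20 members lower in KO. The members nearest the chromosome end, a stretch picked after its values were seen, were mixed. ZCCHC3 (0.23), SOX12 (-0.16), RBCK1 (-0.10) and TBC1D20 (-0.06) had KO values that overlapped WT. C20orf96 (-0.39), NRSN2-AS1 (-0.62), NRSN2 (-0.59) and CSNK2A1 (-0.28) had every KO value below every WT value. The last run, 19 members from CST3 at 23626706 to TPX2 at 31739271, had a median of -0.07, with 10 lower, and the 20 genes after the block had a median of 0.10. No gene before the block passed the filter, and 7 annotated genes start there.

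**Figure D2:**
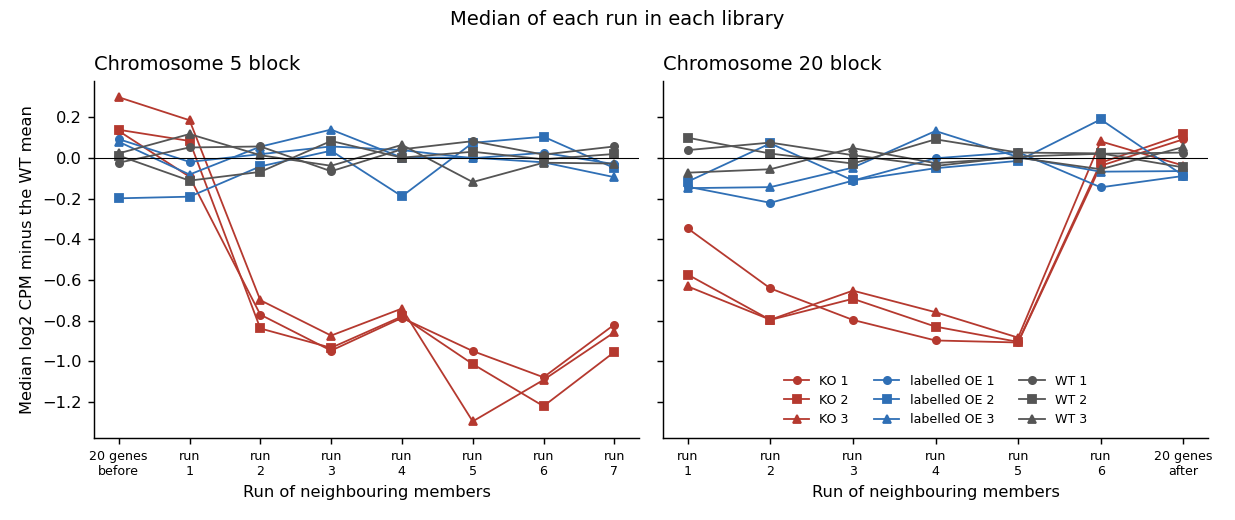
Median log2 CPM relative to the WT mean (vertical axis) of each run of 20 neighbouring members (19 in the last run on chromosome 20), and of the 20 tested genes next to a block, in each of the 9 libraries. The KO lines (red) drop between run 1 and run 2 on chromosome 5 and return to 0 at run 6 on chromosome 20, while the lines of the libraries labelled OE (blue) and of WT (grey) stay between -0.22 and 0.19 throughout.

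At the inner limit of the chromosome 5 block, the genes just outside were GRPEL2 (-0.18 ± 0.16, KO minus WT, log2 with SE), PCYOX1L (-0.20 ± 0.16) and CSNK1A1 (0.34 ± 0.14), and those just inside were ENSG00000230551 (-0.39 ± 0.42), PPARGC1B (0.36 ± 0.53) and SLC26A2 (0.17 ± 0.20). The last members before the chromosome end were RACK1 (-1.30 ± 0.13), TRIM52 (-0.66 ± 0.25) and TRIM52-AS1 (-1.03 ± 0.29). The first members of chromosome 20 were C20orf96 (-0.39 ± 0.26), ZCCHC3 (0.23 ± 0.12) and NRSN2-AS1 (-0.62 ± 0.29). At the inner limit on chromosome 20, ID1 (-0.22 ± 0.19), BCL2L1 (-0.37 ± 0.18) and TPX2 (0.08 ± 0.10) lay inside, and DUSP15 (0.49 ± 0.20), PDRG1 (-0.31 ± 0.16) and XKR7 (0.16 ± 0.52) outside. The values at both inner limits thus scatter about 0 on either side. The last 6 members of chromosome 20 lie beyond a gap without members from 25697003 to 28563850, and HM13, ID1, BCL2L1 and TPX2 among them belong to the long arm, so the name 20p does not cover all members.

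With the first run on chromosome 5 and the last run on chromosome 20 set aside, a split made after the values were seen, 204 of 220 members were lower in KO, with a median of -0.85, or 55.3% of WT. The 39 members of those end runs had a median of 0.02, with 19 lower. Within the 220, 10 members were under 25% of their WT level, 34 at 25 to 40%, 89 at 40 to 60%, 57 at 60 to 80%, 25 at 80 to 125% and 5 above 125%. The class of 40 to 60% thus held 40.5% of these members, against 5.55% of the genes tested outside the blocks. The members also varied among themselves. Within the 220, the distance between the quartiles of the log2 fold change was 0.64 on chromosome 5 and 0.655 on chromosome 20. It was 0.53 for genes outside the blocks. With the end runs included it was wider, at 0.74 on chromosome 5 and 0.71 on chromosome 20. The rest of chromosome 5 had a median of 0.13 over 531 genes and the rest of chromosome 20 a median of -0.075 over 229.

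The shift was seen at every level of expression. Members of chromosome 5 in the low, middle and high class of 3 classes of expression had medians of -1.06, -0.81 and -0.90, and those of chromosome 20 had -0.70, -0.68 and -0.60. The quartiles were wider apart in the low classes (-1.60 and -0.51 on chromosome 5, -1.47 and -0.33 on chromosome 20) than in the high ones (-1.115 and -0.48, and -0.83 and -0.13). The 25 members that are not protein coding had a median of -0.39, against -0.78 for the 234 protein-coding members. Some of the 25 lie in the end runs that were not shifted, among them FRG1CP (0.23 ± 0.18) and ZNF300P1 (-1.36 ± 0.45). ZNF300P1 was itself low, with every KO value below every WT value. Biotype was not separated from position here.

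The members furthest below zero were taken among protein-coding genes with at least 5 CPM in the higher of KO and WT. The lowest on chromosome 20 was EBF4 (ENSG00000088881, chromosome 20, 2692874 to 2760108), a transcription factor of the early B-cell factor family. EBF4 had 1.17, 1.08 and 1.18 CPM in the KO libraries, 5.28, 5.39 and 4.04 CPM in those labelled OE and 10.1, 6.48 and 11.7 CPM in WT. The KO libraries lay far below both other groups, and the libraries labelled OE lay below WT. Its log2 fold change was -3.03 ± 0.33 in KO, a level of 12.1% of WT. The lowest on chromosome 5 was CPLX2 (ENSG00000145920, chromosome 5, 175796310 to 175884021), whose protein binds the SNARE complex of secretory vesicles. CPLX2 had 4.56, 4.97 and 2.995 CPM in the KO libraries, 16.9, 8.85 and 11.6 CPM in those labelled OE and 18.5, 10.6 and 17.9 CPM in WT, a log2 fold change of -1.91 ± 0.29 in KO. Its KO values did not overlap the others, while the libraries labelled OE and WT overlapped.

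The same side held genes of diverse function. NAPB, which helps to take SNARE complexes apart, had a log2 fold change of -1.85 ± 0.23 in KO, and the membrane transporter gene SLC4A11 had -1.80 ± 0.39. KIZ, a centrosome protein that holds the pericentriolar material together, had 9.23, 9.19 and 8.66 CPM in the KO libraries, 27.8, 29.7 and 31.7 CPM in those labelled OE and 28.3, 35.6 and 29.9 CPM in WT, a log2 fold change of -1.79 ± 0.16 in KO. The actin-binding drebrin DBN1 had 44.4, 36.6 and 34.1 CPM in the KO libraries, 93.9, 107 and 102 CPM in those labelled OE and 137, 129.9 and 112 CPM in WT (-1.72 ± 0.14 in KO). For both genes the KO values were well apart from all others. RNF145, a ubiquitin ligase of the endoplasmic reticulum with a role in cholesterol balance, had 20.8, 25.8 and 25.03 CPM in the KO libraries, 67.7, 65.5 and 62.3 CPM in those labelled OE and 82.2, 72.4 and 74.9 CPM in WT (-1.68 ± 0.14 in KO). FABP6, which binds bile acids, was at 2.97 ± 0.862 CPM in KO and 9.17 ± 3.04 CPM in WT, and FAM193B at 2.95 ± 1.04 CPM in KO and 9.10 ± 1.54 CPM in WT (SD, n = 3). FAXDC2, of a family of fatty acid hydroxylases, was low in both KO and the libraries labelled OE, with 1.96 ± 0.494 CPM in KO, 1.92 ± 0.258 CPM in the libraries labelled OE and 6.24 ± 0.664 CPM in WT.

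A few members stood above zero within the blocks. GPX3 (ENSG00000211445, chromosome 5, 151020438 to 151028992), a secreted glutathione peroxidase, had 14.9, 13.5 and 13.4 CPM in the KO libraries, 0.220, 0.553 and 2.73 CPM in those labelled OE and 2.26, 0.856 and 2.19 CPM in WT, a log2 fold change of 2.96 ± 0.46 in KO. It lies in the first run of chromosome 5, which was not shifted. ACSS1 (ENSG00000154930, chromosome 20, 25006230 to 25058980), the acetyl-CoA synthetase of mitochondria, had 339, 307 and 295.4 CPM in the KO libraries, 104, 123 and 107 CPM in those labelled OE and 113, 110.4 and 99.3 CPM in WT (1.54 ± 0.12 in KO). Its neighbour APMAP, a membrane protein known from adipocytes, had 384 ± 31.8 CPM in KO and 272 ± 25.8 CPM in WT (0.50 ± 0.12), and both lie in the last run of chromosome 20, which was not shifted either. FGFR4 (ENSG00000160867, chromosome 5, 177086905 to 177098144), a receptor of fibroblast growth factors, lies within the run with the lowest median of all. Its level was 138, 115 and 98.5 CPM in the KO libraries, 77.2, 91.4 and 79 CPM in those labelled OE and 70.7, 70.4 and 59.7 CPM in WT (0.81 ± 0.14 in KO), so that it went the other way from the 19 remaining members of its run. THBD, the thrombin receptor thrombomodulin, had a log2 fold change of 1.23 ± 0.28 in KO and lies in the fifth run of chromosome 20. The remaining members named on this side, SMIM3, RBM22, TNIP1, SYNPO and NANP, had log2 fold changes of 0.32 to 0.47, and of these SYNPO and SMIM3 had KO and WT values that overlapped.

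**Figure D3:**
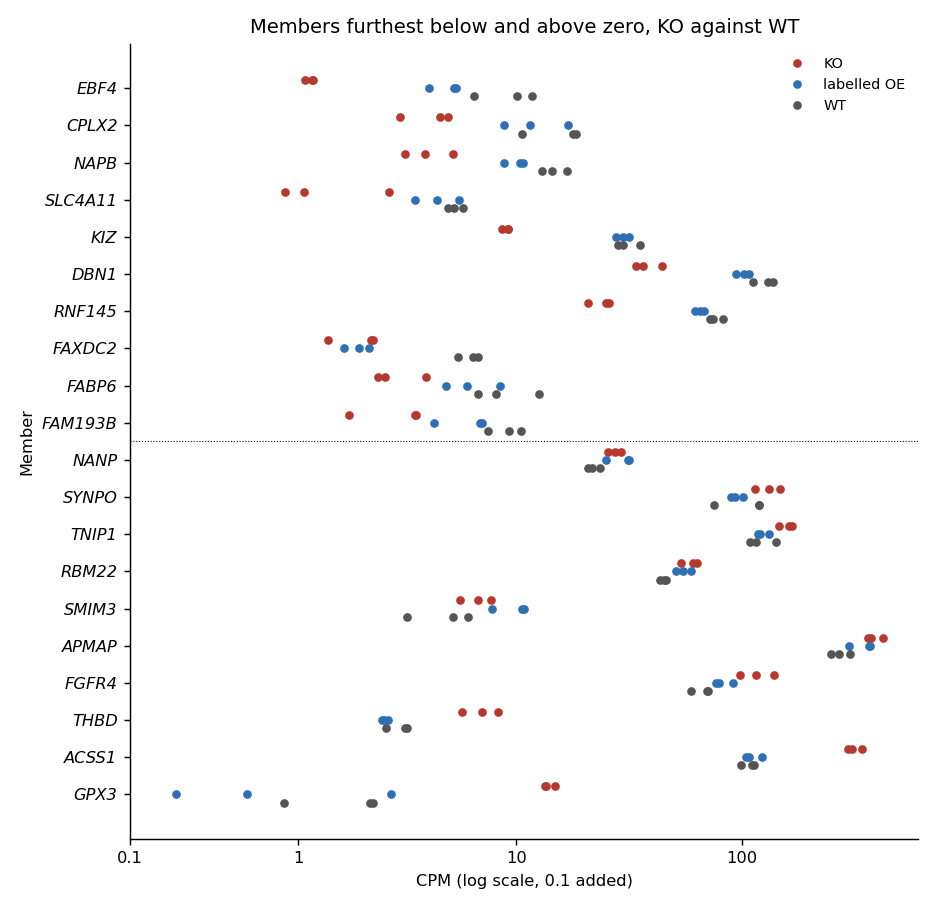
CPM in each library (horizontal axis, log scale with 0.1 added) of the 10 members furthest below zero (above the dotted line) and the 10 furthest above (under it) in KO against WT, with KO in red, the libraries labelled OE in blue and WT in grey. The KO points of EBF4 and CPLX2 lie left of all others, and those of GPX3 and ACSS1 lie right of all others.

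The stretch before the RefSeq start of these 4 genes is shown because they are the extreme members of each block in either direction at 5 CPM or more. That start is not the Ensembl start given above, and by the Ensembl coordinates all 250 bases of the ACSS1 stretch, 223 of the CPLX2 stretch, 153 of the GPX3 stretch and 0 of the EBF4 stretch lie inside the gene. Each sequence is the 250 bases before the RefSeq start, read 5′ to 3′ on the gene's strand, from RefSeq with coordinates on GRCh38.p14. Capitals mark the GC box GGGCGG, which Sp1 binds, on either strand (as CCGCCC on the other one, with overlapping matches merged), and no TATAAA was found in them on either strand. EBF4 holds 5 GC boxes, CPLX2 holds 0, GPX3 holds 1 and ACSS1 holds 4.
EBF4 (chr20:2692530-2692779, + strand): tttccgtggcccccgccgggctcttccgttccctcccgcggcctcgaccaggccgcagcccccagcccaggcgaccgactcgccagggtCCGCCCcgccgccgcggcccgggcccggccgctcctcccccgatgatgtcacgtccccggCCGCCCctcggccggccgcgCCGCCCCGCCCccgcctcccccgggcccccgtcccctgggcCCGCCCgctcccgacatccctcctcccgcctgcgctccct
CPLX2 (chr5:175796283-175796532, + strand): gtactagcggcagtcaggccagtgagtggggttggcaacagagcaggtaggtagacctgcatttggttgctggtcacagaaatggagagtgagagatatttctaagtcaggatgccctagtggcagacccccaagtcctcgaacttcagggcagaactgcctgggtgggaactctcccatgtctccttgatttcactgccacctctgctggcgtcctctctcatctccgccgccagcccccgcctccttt
GPX3 (chr5:151020341-151020590, + strand): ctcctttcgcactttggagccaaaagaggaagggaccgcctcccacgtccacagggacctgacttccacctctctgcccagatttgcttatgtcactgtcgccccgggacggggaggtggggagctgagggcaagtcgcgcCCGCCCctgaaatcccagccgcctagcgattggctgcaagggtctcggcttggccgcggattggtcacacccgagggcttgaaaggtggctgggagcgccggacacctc
ACSS1 (chr20:25058140-25058389, - strand): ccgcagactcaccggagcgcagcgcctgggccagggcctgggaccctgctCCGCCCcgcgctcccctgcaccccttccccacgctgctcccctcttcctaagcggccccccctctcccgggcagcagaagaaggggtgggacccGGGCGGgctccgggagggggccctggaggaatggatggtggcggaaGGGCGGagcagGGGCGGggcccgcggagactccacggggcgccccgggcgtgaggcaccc
The sequences range from 56.8% G and C in CPLX2 to 82.8% in EBF4. Over the members, GGGCGG occurred on either strand in 66.7% of 123 matched promoters on chromosome 5 and in 68.2% of 88 on chromosome 20, against 67.3% of 10392 tested genes outside the blocks and 42.6% of all 35116 promoters of the table. TATAAA occurred in 3.25% and 2.27% of the members, against 5.2% outside the blocks and 10.7% overall. The members' promoters thus held the GC box about as often as those of other expressed genes. A match is a run of letters and not a site shown to be bound.

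Some members had few counts in 1 or more groups, and these were picked after their values were seen. ARL10, a small GTPase gene, had 0 counts in all KO libraries, 0, 2 and 4 in the libraries labelled OE and 14, 12 and 15 in WT, so that it was at least 4.8-fold lower in KO against a floor of 3 counts per library. FBLL1, a relative of the nucleolar methyltransferase fibrillarin, had 0, 2 and 0 counts in KO, 34, 50 and 30 in the libraries labelled OE and 38, 27 and 32 in WT, a ratio of WT to KO of 51.2 (95% counting interval 13.8 to 429). RSPO4, a secreted activator of Wnt signalling, had 0, 0 and 1 counts in KO, 5, 6 and 9 in the libraries labelled OE and 15, 18 and 14 in WT, a ratio of WT to KO of 49.7 (8.49 to 2002). These 3 genes were low in KO in every library. The transcription factor gene INSM1, a neuroendocrine factor, had 0, 0 and 6 counts in KO, 20, 15 and 18 in the libraries labelled OE and 18, 16 and 14 in WT. PDGFRB, the beta receptor of platelet-derived growth factor, went the other way with 24, 22 and 10 counts in KO, 0, 0 and 2 in the libraries labelled OE and 0, 0 and 2 in WT, a ratio of KO to WT of 26.5 (7.0 to 224). PDGFRB was 1 of 6 members, with CSF1R, LINC00261, FRG1EP, ABALON and ENSG00000285476, that did not pass the filter of the test. Intervals and floors cover counting error only, and reads were counted 1 by 1, so that both mates of a fragment, where read, count.

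The members were then grouped by role, in 8 lists, and the 57 tested members in none of them were kept as unlisted. Every list had a median below 0 in KO against WT, from -0.42 for glycosylation and extracellular matrix assembly to -1.12 for the 9 neural and neuroendocrine genes. The 57 unlisted members had a median of -0.70, with 45 lower. Over all 259 members 223 were lower (86.1%), with a median of -0.77, beside 50.8% of all genes tested. KO against WT set the limits of the blocks, so the counts per list below describe the region and are no result about a role.

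**Figure D4:**
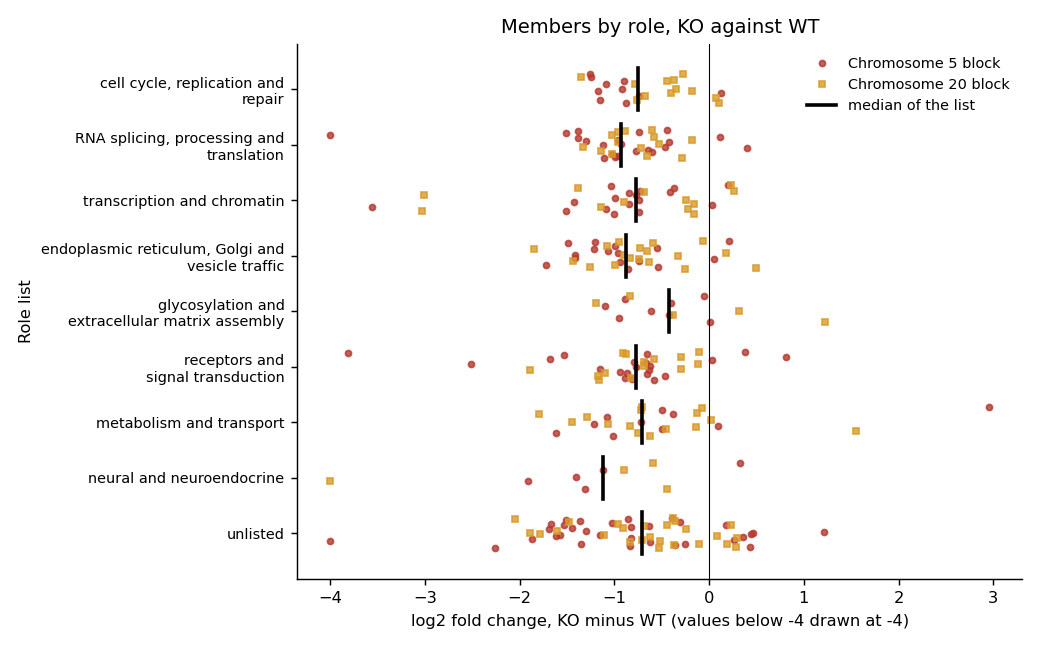
Log2 fold change of KO against WT (horizontal axis, values below -4 drawn at -4) of each tested member by role list (vertical axis), with chromosome 5 members as red circles and chromosome 20 members as yellow squares. The black bars are the list medians, which lie between -1.12 and -0.42.

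Among genes of RNA splicing, processing and translation, 33 of 35 were lower in KO, with a median of -0.93. NPM1 (ENSG00000181163, chromosome 5, 171387116 to 171411137), the nucleolar chaperone nucleophosmin of ribosome assembly, had 453, 479.9 and 476 CPM in the KO libraries, 1153, 1471 and 1249 CPM in those labelled OE and 920.4, 1046 and 892 CPM in WT. RACK1 (ENSG00000204628, chromosome 5, 181236897 to 181248096), a scaffold on the small ribosomal subunit, had 317, 285 and 256 CPM in the KO libraries, 922, 1198 and 938 CPM in those labelled OE and 698, 774 and 636 CPM in WT. Both were lowest in KO and highest in the libraries labelled OE, and no 2 groups overlapped for either gene. The log2 fold changes in KO were -1.02 ± 0.11 for NPM1 and -1.30 ± 0.13 for RACK1. SNRPB, a core protein of the spliceosomal particles, had 188 ± 32.6 CPM in KO, 348 ± 91.7 CPM in the libraries labelled OE and 285 ± 53.6 CPM in WT (SD, n = 3 each). G3BP1, which nucleates stress granules, had 437 ± 9.26 CPM in KO, 393 ± 21.1 CPM in the libraries labelled OE and 403 ± 30 CPM in WT, and KO and WT overlapped. It lies at the start of the second run of chromosome 5, in which 16 of 20 members were lower.

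In the list of the endoplasmic reticulum, Golgi and vesicle traffic, 30 of 34 members were lower in KO (median -0.88). TMED9, a cargo receptor of early secretory vesicles, had 142, 119 and 108 CPM in the KO libraries, 389, 540.3 and 381 CPM in those labelled OE and 276, 318 and 257 CPM in WT (-1.21 ± 0.15 in KO). LMAN2, a lectin that carries glycoproteins, had 121, 107 and 96.6 CPM in the KO libraries, 337, 457 and 339.7 CPM in those labelled OE and 279.6, 335 and 252 CPM in WT (-1.42 ± 0.14 in KO). ERGIC1, a protein of the compartment between the reticulum and the Golgi, was less shifted at -0.54 ± 0.10. For all 3 genes each KO value lay below each WT value. APMAP, the member of this list with the highest mean level, was higher in KO (0.50 ± 0.12), as given above. The list of glycosylation and matrix assembly had 10 of 13 members lower. MGAT1, which starts the conversion of N-glycans to the complex type, was at 50.97 ± 9.70 CPM in KO and 109 ± 15.7 CPM in WT (-1.10 ± 0.15), and GALNT10, which starts mucin-type O-glycans, at 85.9 ± 5.40 CPM in KO and 113 ± 14.6 CPM in WT (-0.40 ± 0.13). ATRN, the membrane protein attractin, had -0.38 ± 0.16, and NDST1, which modifies heparan sulfate, had -0.05 ± 0.14, and the KO values of both overlapped WT.

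Of the cell cycle, replication and repair genes 19 of 22 were lower (median -0.75). PTTG1, the securin that holds back separase until anaphase, had 78.2, 84.3 and 81.7 CPM in the KO libraries, 186, 259 and 218 CPM in those labelled OE and 144, 169 and 142 CPM in WT (-0.90 ± 0.13 in KO). CENPB, which binds the satellite repeats of centromeres, had 109.7 ± 16.04 CPM in KO, 207 ± 24.9 CPM in the libraries labelled OE and 186 ± 22.99 CPM in WT (-0.76 ± 0.14 in KO). CSNK2A1, the catalytic subunit of casein kinase II, was shifted less at -0.28 ± 0.11. TPX2, a spindle protein that activates Aurora A and the last member on chromosome 20, had 400.4, 394 and 424 CPM in the KO libraries, 294, 251 and 284 CPM in those labelled OE and 391, 367 and 398 CPM in WT, so that KO and WT overlapped and the libraries labelled OE were below both. The transcription and chromatin list had 25 of 29 members lower (median -0.77). NSD1, a methyltransferase of histone H3, was at 61.2 ± 8.27 CPM in KO, 66.8 ± 14.4 CPM in the libraries labelled OE and 102 ± 25.3 CPM in WT (-0.73 ± 0.19 in KO). The other members of this list with the highest levels were SOX12 (-0.16 ± 0.15), ZCCHC3 (0.23 ± 0.12) and HMGXB3 (0.20 ± 0.12). HMGXB3 lies in the first run of chromosome 5, which was not shifted. SOX12 and ZCCHC3 lie in the first run of chromosome 20, which had a median of -0.51.

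Among receptors and signal transduction genes 32 of 35 were lower (median -0.77). FKBP1A, the protein that binds the drug tacrolimus, had 223, 213 and 229 CPM in the KO libraries, 400.2, 500.4 and 444 CPM in those labelled OE and 335, 364 and 297 CPM in WT (-0.58 ± 0.12 in KO). ANXA6, which binds membranes in the presence of calcium, had 166 ± 18.1 CPM in KO and 258 ± 29.01 CPM in WT (-0.63 ± 0.12). ANXA6 lies in the first run of chromosome 5, which had a median of 0.13, yet each of its KO values lay below each WT value. The autophagy receptor SQSTM1 lies in the last run of chromosome 5 and had 190.2, 186 and 157 CPM in the KO libraries, 213, 224 and 196 CPM in those labelled OE and 170.3, 181 and 172 CPM in WT (0.03 ± 0.11 in KO). KO and WT overlapped for SQSTM1, the 1 member of the 20 in that run that was not lower in KO. TNIP1, also among the members of this list with the highest levels, was higher in KO (0.375 ± 0.125). It lies in the first run of chromosome 5. In the metabolism and transport list 21 of 25 were lower (median -0.71). SLC23A2, a transporter of vitamin C, had 169.7, 192 and 196 CPM in the KO libraries, 279, 207 and 242 CPM in those labelled OE and 315, 256 and 346 CPM in WT (-0.72 ± 0.14 in KO). The mitochondrial serine carrier SFXN1 had -0.49 ± 0.12 and the glycogen phosphorylase PYGB -0.07 ± 0.11 on the log2 scale. ACSS1, also among the members of this list with the highest levels, was higher in KO (1.545 ± 0.117), as given above. Of the 9 neural and neuroendocrine genes 8 were lower, the exception being SYNPO (0.33 ± 0.16), whose KO and WT values overlapped. PRNP, which encodes the prion protein, had 26.5, 26.8 and 31.98 CPM in the KO libraries, 51.8, 47.02 and 53.3 CPM in those labelled OE and 50.9, 53.3 and 54.5 CPM in WT (-0.90 ± 0.14 in KO), and KIAA1191 and NRSN2 had -1.12 ± 0.12 and -0.59 ± 0.12.

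The blocks also hold a pair of pantothenate kinase genes, which catalyse the first step of coenzyme A synthesis, 1 on each chromosome. PANK3 (ENSG00000120137, chromosome 5, 168548495 to 168579368) had 66, 83.6 and 99.9 CPM in the KO libraries, 124, 75.1 and 119.7 CPM in those labelled OE and 113, 108 and 132 CPM in WT (-0.50 ± 0.18 in KO). PANK2 (ENSG00000125779, chromosome 20, 3888839 to 3929882) had 16.7, 18.7 and 18.8 CPM in the KO libraries, 23.8, 24.9 and 26.99 CPM in those labelled OE and 28.04, 29.6 and 33.5 CPM in WT (-0.75 ± 0.15 in KO). Both were lower in every KO library than in every WT library. Each gene spans a hairpin of the same microRNA, and the pair was picked for that after its values were seen. In all, 11 microRNA hairpins of the reference table lie within members on the same strand. The sequences, from RefSeq on GRCh38.p14, show that both hairpins carry the same mature strand near their 3′ end. Capitals mark the mature strand in the hairpins, and the seed (bases 2 to 8) in the mature sequence.
MIR103A1 hairpin in PANK3 (chr5:168560896-168560973, - strand): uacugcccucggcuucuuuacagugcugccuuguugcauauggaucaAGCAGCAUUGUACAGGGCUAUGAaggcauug
MIR103A2 hairpin in PANK2 (chr20:3917494-3917571, + strand): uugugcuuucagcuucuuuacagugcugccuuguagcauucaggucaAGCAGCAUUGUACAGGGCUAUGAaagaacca
hsa-miR-103a-3p, from either hairpin: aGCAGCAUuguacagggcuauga
The level of the microRNA itself was not measured in these poly-A selected libraries.

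The libraries labelled OE were compared with WT by the edgeR quasi-likelihood test, a contrast that did not enter the choice of region but shares the WT libraries with it. Of 259 members 52 passed at an adjusted p under 0.05 (20.1%), beside 20.7% of all 14150 genes tested. A total of 26 rose, beside 9.65% of all genes, and 26 fell, beside 11.0%. The medians were -0.01 on chromosome 5, -0.05 on chromosome 20 and -0.01 over all genes, so both the share called and the median of the members were near those of all genes. Run by run the members' medians lay between -0.15 and 0.13. With library totals alone as the scale, 16 rose and 37 fell, and the median of all genes moved to -0.13. The count of calls depended on single libraries, with 22 members called without WT replicate 1, 19 without WT replicate 3 and 33 without OE replicate 2. The calls over all genes, 2924 with every library, were 1381, 1244 and 1849 in these fits.

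The 5 members that rose in the libraries labelled OE with the smallest adjusted p were ERGIC1, PRELID1, TMED9, RACK1 and NHP2. ERGIC1 had 336, 327 and 335 CPM in the libraries labelled OE and 247, 238 and 229.7 CPM in WT (0.48 ± 0.10 on the log2 scale, edgeR adjusted p = 0.004). The groups did not overlap. PRELID1, which carries phosphatidic acid within mitochondria, had 154, 179.8 and 147 CPM in the libraries labelled OE and 107, 111 and 92.9 CPM in WT (0.63 ± 0.14, edgeR adjusted p = 0.00638). TMED9 rose by 0.62 ± 0.14 (edgeR adjusted p = 0.00764) and RACK1 by 0.54 ± 0.12 (edgeR adjusted p = 0.00768), with no overlap for either in the values given above. NHP2, a protein of the particles that modify ribosomal RNA and of telomerase, had 97.1, 108 and 84.8 CPM in the libraries labelled OE and 61.4, 72.6 and 49.7 CPM in WT (0.66 ± 0.15, edgeR adjusted p = 0.00808). Without WT replicate 3 its adjusted p was 0.0518, and over its other alternatives it ran from 0.000301 to 0.039. In KO against WT, which shares the WT libraries, these 5 genes had log2 fold changes of -0.54, -0.85, -1.21, -1.30 and -1.12.

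The 5 members that fell with the smallest adjusted p were TCOF1, LARP1, MAVS, RRBP1 and FAXDC2. TCOF1, the treacle protein of ribosomal DNA transcription, had 17.04, 26.7 and 20.1 CPM in the libraries labelled OE and 76.2, 37.7 and 65.7 CPM in WT (-1.50 ± 0.22, edgeR adjusted p = 0.000442). LARP1, which binds the messenger RNAs of ribosomal proteins, had 80.4, 73.8 and 72.6 CPM in the libraries labelled OE and 182, 109 and 183 CPM in WT (-1.06 ± 0.17, edgeR adjusted p = 0.000612). In both genes WT replicate 2 was the lowest WT library, and no library labelled OE reached it. MAVS, the mitochondrial adaptor of antiviral RNA sensing, changed by -0.93 ± 0.17 (edgeR adjusted p = 0.0021), and RRBP1, which binds ribosomes to the reticulum, by -1.13 ± 0.21 (edgeR adjusted p = 0.00214). FAXDC2 changed by -1.69 ± 0.32 (edgeR adjusted p = 0.0024). In MAVS, RRBP1 and FAXDC2 too, WT replicate 2 was the lowest WT library, and no library labelled OE reached it. RRBP1 had 42.2, 38.3 and 45.2 CPM in the libraries labelled OE and 109.6, 53.6 and 111.9 CPM in WT. In KO against the same WT libraries the 5 had log2 fold changes of -0.45, -0.97, -1.10, -1.08 and -1.67. For TCOF1 the KO values overlapped WT.

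Annotated length moved with these calls. In the members the median log2 fold change of the libraries labelled OE was 0.31, 0.03, -0.07, -0.25 and -0.17 from the shortest to the longest of 5 classes of equal size over all tested genes, with 11 members called higher and 2 lower in the shortest class and 4 higher and 11 lower in the longest. Over all genes it was 0.24, 0.11, 0.01, -0.12 and -0.29, with 535 called higher and 64 lower of 2829 in the shortest class and 91 higher and 750 lower of 2830 in the longest. The slope of log2 CPM on log2 length was 0.042, 0.085 and 0.129 in the KO libraries, -0.075, -0.204 and -0.083 in the libraries labelled OE and 0.056, -0.053 and 0.103 in WT. With a per-library correction for length, 50 members were called, 26 higher and 24 lower, beside 2806 of all genes. Of these, 38 were also among the 52, each in the same direction, which is 73.1% of the 52 and 76.0% of the 50. In KO against WT the members' medians from the shortest to the longest class were -0.89, -0.80, -0.86, -0.72 and -0.63, below 0 in each.

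**Figure D5:**
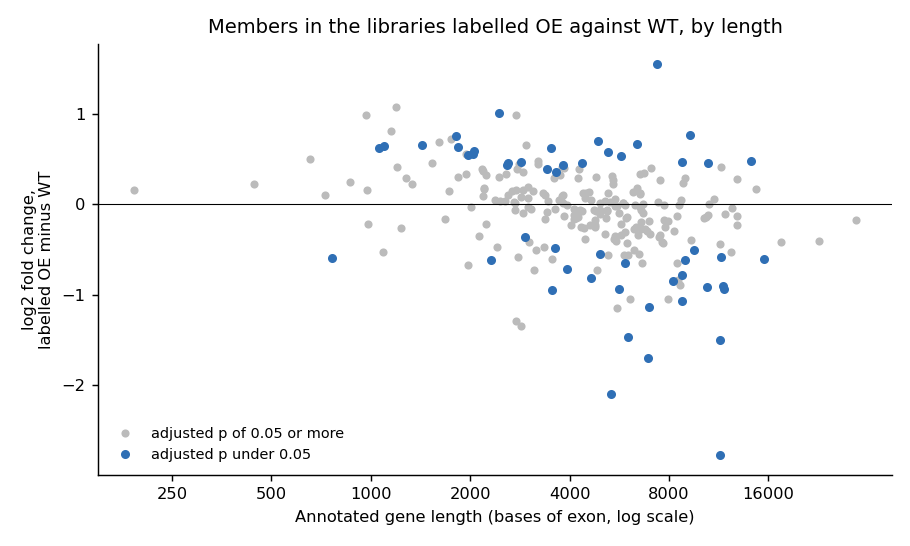
Log2 fold change of the libraries labelled OE against WT (vertical axis) of each tested member by its annotated length in bases of exon (horizontal axis, log scale), with members at an adjusted p under 0.05 in blue. The median is 0.31 in the shortest class of 5 and -0.17 in the longest, and blue points lie above 0 mainly at the short end and below 0 mainly at the long end.

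Overlap with other genes limits some members. Reads in exons shared with another gene were left out by the counting, and strand was ignored. A total of 147 of the 259 members share no exon base with another annotated gene, 43 share more than 10% and 6 more than 50%. Of the genes named by value, PRELID1 shares 62.4% of its exon bases, ENSG00000230551 48.6%, BCL2L1 43.0%, NHP2 28.9%, TRIM52 28.5%, SQSTM1 22.4%, TRIM52-AS1 22%, SNRPB 20%, FKBP1A 16.8%, PANK3 14.0%, PANK2 11.4% and FABP6 10%, so their counts are partial. NPM1, CSNK2A1 and PTTG1 have near copies elsewhere in the genome, and reads that fit a copy equally well were left out.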

How the data were processed

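Raw counts of reads per gene were deposited by the authors, 1 table per library, in 3 groups of 3 libraries by title and genotype label. featureCounts 1.5.2 made them from the Ensembl release 101 annotation of GRCh38, per the file headers, with default options, under which strand is ignored, single reads are counted, and reads with several places or several genes are dropped. The submitters' processing notes also list FastQC, HISAT2 1.03, Subread, DESeq2 and featureCounts in version 0.1.0. Library totals were 8006873 to 10895080 counts, and no 2 libraries of a group agreed within sampling noise.

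From the counts, edgeR 4.0.16 (R 4.3.3) was run on all 9 libraries with TMM factors, the filterByExpr filter (minimum count 10), a group term and the quasi-likelihood test, with Benjamini-Hochberg adjustment over the 14150 genes tested and a threshold of 0.05. Fold changes are on the log2 scale, with standard errors. Levels are CPM on TMM-scaled totals. limma 3.58.1 (voom), DESeq2 1.42.0, other scalings, filters and a length correction were alternatives. Symbols were matched for 264 of the 265 members, and biotypes are from GENCODE 29.

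The members, role lists and named genes were chosen with earlier results of these data known. The text names the 10 lowest and up to 10 highest protein-coding members with at least 5 CPM in the higher of KO and WT, the 3 genes on each side of each limit, the 4 members of each role list with the highest mean CPM, the 5 members with the smallest adjusted p in each direction for the libraries labelled OE, and SGPL1. Genes outside this rule are said to be chosen after their values were seen.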

Additional observations from a re-analysis of the deposited data

How the results depend on the processing

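The median log2 fold change of the chromosome 5 members in KO against WT, -0.872, moved to -0.927 with library totals alone and to -0.839 with no filter on low counts, and ran from -0.901 to -0.838 with 1 library left out. The chromosome 20 median, -0.672, moved to -0.726 with library totals and ran from -0.68 to -0.634 with 1 library left out. The number of members lower in KO, 223, stayed between 212 and 231 under every alternative run. For the libraries labelled OE against WT, the 52 calls became 19 to 64 with 1 library left out, the 26 higher became 7 to 35 and the 26 lower became 12 to 29, while the 2924 calls over all genes became 1244 to 3673. The counts without WT replicate 1 were 22 calls (9 higher, 13 lower), without WT replicate 3 they were 19 (7 and 12), without OE replicate 2 they were 33 (17 and 16), and without OE replicate 3 they were 37 (20 and 17), beside 1381, 1244, 1849 and 2181 calls over all genes. The cause was not tested. With library totals 16 were higher and 37 lower, and the median of the members, -0.029, moved to -0.15, beside -0.129 for all genes. With 1 library left out that median ran from -0.066 to -0.013. The 10 members named for the libraries labelled OE kept their direction and call in 189 of 190 alternative fits, the exception being NHP2 (0.53, edgeR adjusted p = 0.0518) without WT replicate 3. These 10 were picked for the smallest adjusted p in the main fit, and the alternatives reuse the same libraries. Their stability therefore gives no independent support and does not extend to the other calls.

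The groups share replicate numbers. Deviations from the group means correlated at -0.138 to 0.246 between libraries of the same number, and at -0.281 to 0.224 between those of different numbers. Whether the numbers pair the libraries could not be told from these values. With the replicate number as a block, the medians were -0.88 on chromosome 5 and -0.669 on chromosome 20, 223 members were lower in KO, and 65 members were called for the libraries labelled OE (35 higher, 30 lower), beside 3757 over all genes, with a median of -0.037.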
